A study of Mus musculus with 22 samples.

Results

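A local splicing variation (LSV) is the set of all splice junctions that leave 1 exon (a source LSV) or enter 1 exon (a target LSV), and it was called complex here when its entry held 3 or more junction values. The tables of 5 comparisons with colon stem cells listed 1634 LSVs, of which 1341 (82.1%) were complex and 293 were binary, with 2 values. The complex entries came from 878 distinct LSVs in 680 genes, 623 of them protein coding. All 22 RNA-seq libraries were made from crypt cells of the colon of wild-type male C57BL/6N mice aged 5 to 7 weeks, without treatment, sorted as live Epcam+ cells negative for Cd31 and Cd45. Stem cells (Stem, 3 libraries) had the highest Cd44, low Cd24 and no Ckit. Absorptive progenitors (AbsPro, 3) had medium to high Cd44, low Cd24 and no Ckit. The secretory gate (SecPDG, 4) was labeled as high Cd44 with medium Cd24 and Ckit. The study's text instead gives medium Cd44 for the secretory gate, and states that Kit protein was detected in tuft cells only. Tuft cells (Tuft, 5) were Ckit+ and Cd24 high, enterocytes (Enterocyte, 5) were Cd44 low or negative and Cd24-, and enteroendocrine cells (EEC, 2) were Cd44 low or negative and Cd24+. Cells of several mice were pooled for every type other than Stem and AbsPro.

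Each value in an LSV is the share of its reads that use 1 junction, from 0 to 1, and the shares of an LSV add up to about 1. Splicing joins a donor site at the end of one exon to an acceptor site at the start of the next, and a complex LSV holds several such choices at once, such as a skipped exon together with a second acceptor or a retained intron. Alternative first exons, which begin at different promoters and join a common exon, also appear as target LSVs. In the gut epithelium, splicing regulators such as Esrp1 keep epithelial forms of adhesion and cytoskeletal genes.

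The sequences below show what the junctions of some of these LSVs join, each with 15 bases on either side. They are written 5′ to 3′ from the GENCODE M21 transcripts of GRCm38. In the first set, capitals mark the side of the junction that differs and lower case marks the exon that all junctions of the LSV enter. Prkacb, a catalytic subunit of protein kinase A, has 3 alternative upstream exons at this place (minus strand of chromosome 3, exon 146757707 to 146757768).
Prkacb junction from 146812638: GCGAAGTGGAGAGCGtgaaagagtttctag
Prkacb junction from 146781147: CATGGGACAAATCAAtgaaagagtttctag
Prkacb junction from 146770516: CCAACATGGGCTTGTtgaaagagtttctag
Abi1, a part of the WAVE complex that drives actin branching, has a target LSV on the minus strand of chromosome 2 (exon 22946576 to 22947210), shown because its 3 junctions were all in use in Stem.
Abi1 junction from 22957018: CCACTGCGGGCCCAGttgctgatagcccaa
Abi1 junction from 22953435: ATTCTCAAAATTCAAttgctgatagcccaa
Abi1 junction from 22950184: GGGTGCAGGAAAACAttgctgatagcccaa
Itga6, an integrin chain that binds laminin, has a target LSV on the plus strand of chromosome 2 (exon 71855854 to 71858416), where the exon from 71853534 to 71853663 is joined or skipped. It is shown because its exon could also be followed in single libraries.
Itga6 junction that skips the exon: TTTTTACTGTGGAAGtgtggattctttaag
Itga6 junction from the exon: CTACTTCCATAATTGtgtggattctttaag
In the second set, capitals mark 3 bases that are kept or lost when 2 acceptors lie 3 bases apart, the most frequent distance between paired acceptors (below). Mff acts in mitochondrial fission, Mdm4 restrains p53 and Golga4 is a Golgi tether.
Mff longer exon: cctcaaagcgaagagCAGagccgagcagtt
Mff shorter exon: cctcaaagcgaagagagccgagcagttggc
Mdm4 longer exon: gaacaaattagtcagCAGgtgcggccaaaa
Mdm4 shorter exon: gaacaaattagtcaggtgcggccaaaactg
Golga4 longer exon: gccagcatggcaaagAAGaactcagaagaa
Golga4 shorter exon: gccagcatggcaaagaactcagaagaacaa

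Reads counted in genes ranged from 15314543 to 22462518 per library in Stem, AbsPro and SecPDG, from 9930648 to 20892532 in Tuft, from 5950619 to 12966128 in Enterocyte, and were 4122122 and 13132315 in EEC. The summed level of 5 stem cell markers was 1430 to 1742 CPM (gene counts scaled to the library total) in Stem and at most 734 elsewhere, and that of 5 enteroendocrine markers was 80101 to 107613 in EEC and at most 3074 elsewhere. The sum of 5 tuft markers was 1952 to 5121 in Tuft and at most 500.3 elsewhere. Goblet markers were as high in the Tuft libraries (50331 to 72617 CPM) as in SecPDG (40505 to 131989). They were also at 23366 to 49270 in Enterocyte and 5225 to 15142 in AbsPro, against 1187 to 1938 in Stem. Enterocyte markers were as high in AbsPro (3964 to 6130) and EEC (2810 to 8245) as in Enterocyte (3746 to 6537). None of these 5-gene lists had a defining marker at 0 in every library of its own cell type. Immune markers (8 genes) reached at most 332 CPM, in Tuft, and stromal markers (7 genes) at most 453, in EEC. The part of these other cells in the values below was not tested.

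Most complex LSVs turned on 2 junctions. Of the 1341 entries, 361 held 3 values, 293 held 4 and 687 held 5 or more, but 968 (72.2%) had exactly 2 junctions with a share of at least 0.05 in Stem or in the other cell type. At least 4 junctions reached that share in 106 entries (7.9%). Target LSVs outnumbered source LSVs, 764 to 577. The 2 junctions that gained and lost most led to different partner exons in 799 entries, to 2 sites of the same partner exon in 229, to 2 sites of the reference exon in 176, and to a retained intron in 137. Where they led to different exons, the junction that gained was the nearer one in 469 entries and the farther one in 330.

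Much of the remaining list was rare or unannotated. Of 8045 junctions, 36.0% matched an intron of GENCODE M21, and the range over the comparisons was 26.9% (EEC) to 41.6% (SecPDG). The junction that changed most was annotated more often: it lay in a coding stretch in 726 entries (54.1%), in a 5′ UTR in 215, in a 3′ UTR in 27 and in non-coding transcripts in 38. It was a retained intron in 63 and was not annotated in 272. The 19 entries with 20 or more values fell in few genes, chosen here after their values were seen. Pigr, the receptor that carries polymeric immunoglobulin across the epithelium, held 208 values in Enterocyte, and only 1 of them reached a share of 0.05. Muc4, a membrane mucin, held 5 such entries of up to 143 values, and Ceacam1, Cdhr5, Tpd52, Ubb, Hnf4a, Gm10800 and 4933431E20Rik held the others.

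Most genes held a single complex LSV. Among the 680 genes, 515 held 1 distinct complex LSV, 141 held 2, 16 held 3 and 8 held 4 or more. Ktn1, a kinectin that binds kinesin, held 5 distinct LSVs in 4 comparisons. Those of Sec31a, a coat protein of vesicles leaving the endoplasmic reticulum, and Srrm2, a scaffold protein of nuclear speckles, numbered 4 each, in 3 and 5 comparisons. A junction shared with another complex LSV of the same comparison was found in 101 AbsPro, 93 SecPDG, 69 Tuft, 36 Enterocyte and 81 EEC entries, so these entries are not independent of each other.

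The size of the change was taken as the largest absolute difference of a junction's share, other cell type minus Stem. The tables pool the libraries of a cell type, so these sizes have no error and no test. The median size was 0.316 in AbsPro (326 complex LSVs), 0.310 in SecPDG (337), 0.298 in Tuft (238), 0.299 in Enterocyte (185) and 0.435 in EEC (255). EEC therefore held the largest changes, with a difference of at least 0.5 in 97 entries (38.0%) against 29 (8.9%), 30 (8.9%), 13 (5.5%) and 12 (6.5%) in the order above. The EEC values rest on 2 libraries, one of them the shallowest of the series, with counts that name no gene at 70.7 and 91.6% of a library, against 56.9 to 58.6% in Stem. The part of depth and of these counts was not tested. Binary LSVs had medians of 0.322, 0.315, 0.328, 0.326 and 0.502 in the same order. At the edge of the definition, entries with 3 values had a median of 0.331 (361 entries) and those with 2 values a median of 0.329 (293). The smallest size in any table was 0.163, so smaller changes were not listed by the authors.

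**Figure D1:**
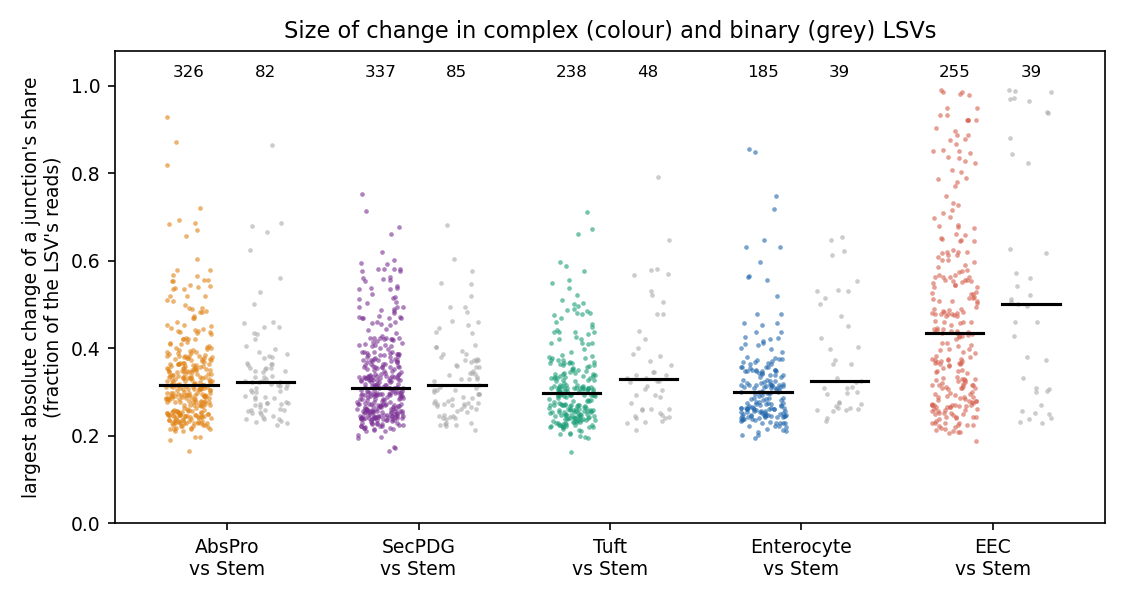
Each point is 1 LSV, with the largest absolute change of a junction's share (fraction of the LSV's reads) on the vertical axis, for complex LSVs in colour and binary ones in grey. Bars mark medians and the numbers above give the LSVs. The EEC points spread up to 0.991, and their median of 0.435 lies above the 0.298 to 0.316 of the other 4 comparisons.

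The number of junctions in use moved in opposite directions in EEC and in the other types. A single junction at or above a share of 0.05 was found in Stem in 15.7% to 26.5% of the entries. In the other cell type, this share was 9.8% in AbsPro, 7.7% in SecPDG, 7.6% in Tuft and 7.0% in Enterocyte, but 58.4% in EEC. The median effective number of junctions (the inverse of the summed squared shares) was 1.71 in Stem and 1.80 in AbsPro. The same pair of values was 1.64 and 1.83 for SecPDG, 1.67 and 1.86 for Tuft, 1.58 and 1.89 for Enterocyte, and 1.84 and 1.09 for EEC. Binary LSVs did likewise, with 74.4% on a single junction in EEC. The EEC shares pool 2 libraries, with 4122122 and 13132315 reads in genes, and the part of sparse reads in these values was not tested. The leading junction was replaced by another in 40.8%, 41.2%, 42.0%, 36.8% and 48.2% of the entries of AbsPro, SecPDG, Tuft, Enterocyte and EEC.

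In AbsPro, the largest changes fell in Firre, Rfx7, Gm10800 and Prkacb. Firre is a long non-coding RNA of the X chromosome that organizes chromatin. Its main junction (50626509 to 50630891, minus strand) fell from a share of 0.993 in Stem to 0.065, while 2 nearer junctions reached 0.669 and 0.264. Rfx7, a transcription factor, went from a 5′ UTR intron used at 0.88 to retention of an intron at 0.873. The Gm10800 entry, of 73 values, reached 0.819 on a junction with no bases between its ends, and its leading junctions were not annotated. In Prkacb, the upstream exon at 146812638 was used at 0.874 in Stem and 0.153 in AbsPro, and the exon at 146781147 at 0.124 and 0.829.

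In SecPDG, the leading LSVs were in Rcor3, Gm20529, Wdr48 and Boc. Rcor3, a corepressor of the CoREST family, changed its upstream exon. The junction from the nearest exon (192101626, minus strand of chromosome 1) fell from 0.879 to 0.127, and the one that skips to 192116269 rose from 0.006 to 0.759. Gm20529 retained an intron at 0.741 against 0.027 in Stem. Wdr48, a cofactor of deubiquitinases, moved from an annotated coding junction (0.869 to 0.194) to one of a non-coding transcript (0.127 to 0.804). In Boc, a co-receptor for Hedgehog ligands, 2 acceptors 3 bases apart exchanged their shares, with the annotated one falling from 0.877 to 0.216 and an unannotated one going from 0.117 to 0.755.

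In Tuft, Myl6, Hcfc1r1, Plk1 and Gm20529 led. Myl6, an essential light chain of non-muscle and smooth muscle myosin, skipped an exon in Stem (junction 128491033 to 128492059 on the minus strand of chromosome 10, share 0.883) and joined it in Tuft, where the junction to 128491764 had 0.792 against 0.099 in Stem. Hcfc1r1, a regulator of a host cell factor, moved to an acceptor 12 bases downstream (0.003 to 0.676). Plk1, the kinase that drives mitosis, retained an intron (between 122168983 and 122169081 on chromosome 7) at 0.844 in Tuft against 0.184 in Stem, and at 0.716 in SecPDG and 0.896 in Enterocyte. Gm20529 retained its intron at 0.624 in Tuft.

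In Enterocyte, the order was Prkacb, Stk25, Nop9 and Plk1. Prkacb used its exon at 146812638 at only 0.013, and the exon at 146781147 at 0.974. Stk25, a kinase of the Golgi, changed from a 5′ UTR junction (0.98 to 0.131) to an unannotated one from an exon 18635 bases upstream (0.016 to 0.859). Nop9, a factor of ribosome synthesis, lost its coding junction (0.909 to 0.162) to 2 unannotated ones within the exon (0.517 and 0.311).

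In EEC, Rnf181, Cog3, Zfp316 and Zpr1 showed almost complete exchanges. Rnf181, a ubiquitin ligase, changed its donor from one used at 0.996 in Stem to another used at 0.969 in EEC. Cog3, a subunit of a Golgi tethering complex, went from a spliced junction at 0.996 to a retained intron at 0.978. The retained intron also took 0.970 in Zfp316, a zinc finger gene, and 0.979 in Zpr1. In Prkacb, EEC used the nearest exon (146770516) at 0.879, which Stem used at 0.001.

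Across the comparisons, 578 of the 878 distinct complex LSVs were listed once, 175 in 2 comparisons, 92 in 3, 28 in 4 and 5 in all 5. The 300 LSVs (34.2%) listed more than once compare with 67 of 191 binary LSVs (35.1%). All 5 comparisons share the Stem libraries, so an LSV with an unusual share in Stem tends to appear in several. Counted by gene, 266 of 680 (39.1%) were listed more than once. LSVs listed in 1 comparison only made up 153 of the AbsPro entries (46.9%), 145 of SecPDG (43.0%), 59 of Tuft (24.8%), 61 of Enterocyte (33.0%) and 160 of EEC (62.7%). The pair with the most common LSVs was SecPDG and Tuft, with 127, which were 37.7% of the SecPDG and 53.4% of the Tuft entries. The pairs with EEC had 38 to 42 in common. The median size was 0.317 for LSVs listed once, and 0.304, 0.320, 0.354 and 0.330 for entries of LSVs listed 2, 3, 4 and 5 times.

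**Figure D2:**
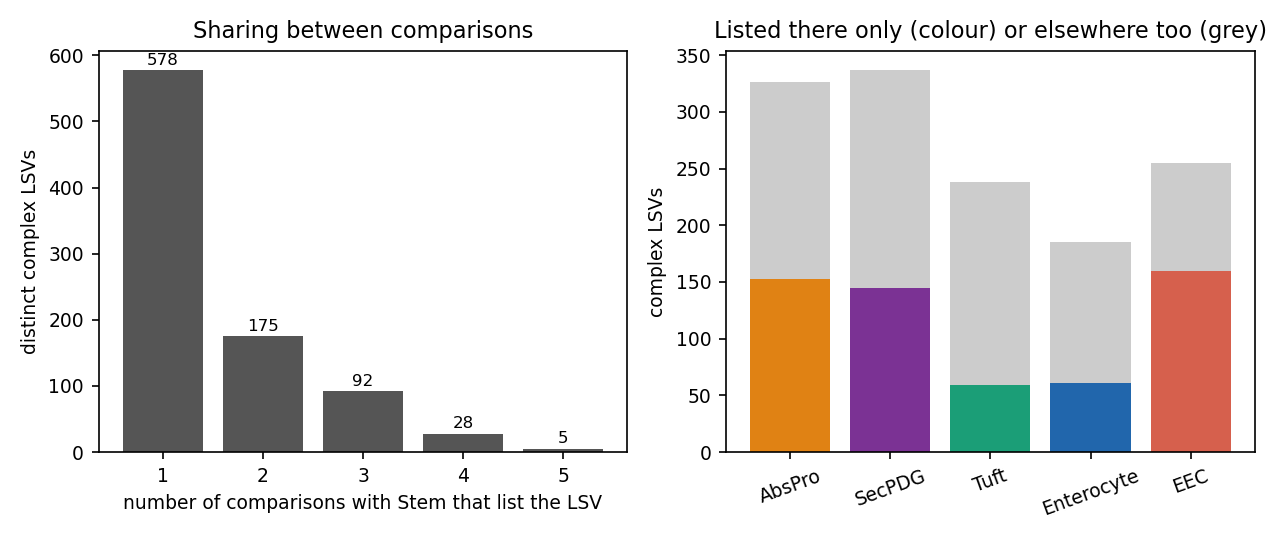
On the left, bars count the distinct complex LSVs by the number of comparisons that list them, from 578 in 1 to 5 in all. On the right, the complex LSVs of each comparison are split into those listed there only (colour) and those listed in another comparison too (grey). EEC has the largest part of its own, 160 of 255.

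The 5 LSVs listed in every comparison were in Cstf3, Api5, Ppip5k2, Mat2b and Trip12, and the values are given side by side since they share Stem. Cstf3, a subunit of the factor that stimulates 3′ end cleavage, retained an intron at 0.370 to 0.377 in Stem, at 0.126 in Tuft, and at no more than 0.006 in the other 4 types. Api5, an inhibitor of apoptosis, has 2 acceptors 5 bases apart (94413786 and 94413781, minus strand of chromosome 2). The unannotated first one led in Stem (0.788 to 0.802), was used at 0.426 to 0.451 in AbsPro, SecPDG, Tuft and Enterocyte, and at 0.009 in EEC. Ppip5k2, a kinase of inositol pyrophosphates, has acceptors 3 bases apart. The unannotated one, which gives the shorter exon, had 0.346 to 0.359 in Stem and no more than 0.043 elsewhere. Mat2b, the regulatory subunit of methionine adenosyltransferase, has 2 alternative upstream exons. The farther one had 0.431 to 0.445 in Stem, 0.121 in AbsPro, 0.197 in SecPDG, 0.148 in Tuft, 0.071 in Enterocyte and 0.003 in EEC. Trip12, a ubiquitin ligase, included an exon at 0.241 to 0.258 in Stem and at 0.003 to 0.031 in the others.

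Of the 28 LSVs listed in 4 comparisons, the 7 with the largest median size were in Prkacb, Arhgap32, Fbxw11, Tor1aip2, Son, Tmem234 and Ttc3. Arhgap32, a GTPase-activating protein, used its farther upstream exon at 0.660 to 0.674 in Stem, at 0.002 in AbsPro, 0.283 in SecPDG, 0.181 in Tuft and 0.030 in Enterocyte. In Fbxw11, a substrate receptor of the ubiquitin ligase that degrades beta-catenin, the exon at 32652748 was joined at 0.137 to 0.142 in Stem and at 0.635 to 0.701 in AbsPro, SecPDG, Tuft and Enterocyte. Son, a splicing cofactor of nuclear speckles, changed its next exon. The near acceptor (91662492, chromosome 16) had 0.661 to 0.670 in Stem and 0.105, 0.240, 0.224 and 0.182 in AbsPro, SecPDG, Tuft and Enterocyte. Tor1aip2, a protein of the nuclear envelope and endoplasmic reticulum, retained an intron at 0.0 in Stem and at 0.409, 0.473, 0.522 and 0.562 in these 4 types. The Tmem234 junction from 129601243 fell from 0.576 to 0.591 in Stem to values between 0.035 and 0.230. Ttc3, a ubiquitin ligase, used the farther of 2 upstream exons at 0.438 to 0.457 in Stem and at 0.018, 0.142, 0.049 and 0.007 in AbsPro, SecPDG, Enterocyte and EEC. In Prkacb, the exon at 146812638 had 0.395 in Tuft and 0.091 in EEC, with the AbsPro and Enterocyte values as given above.

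**Figure D3:**
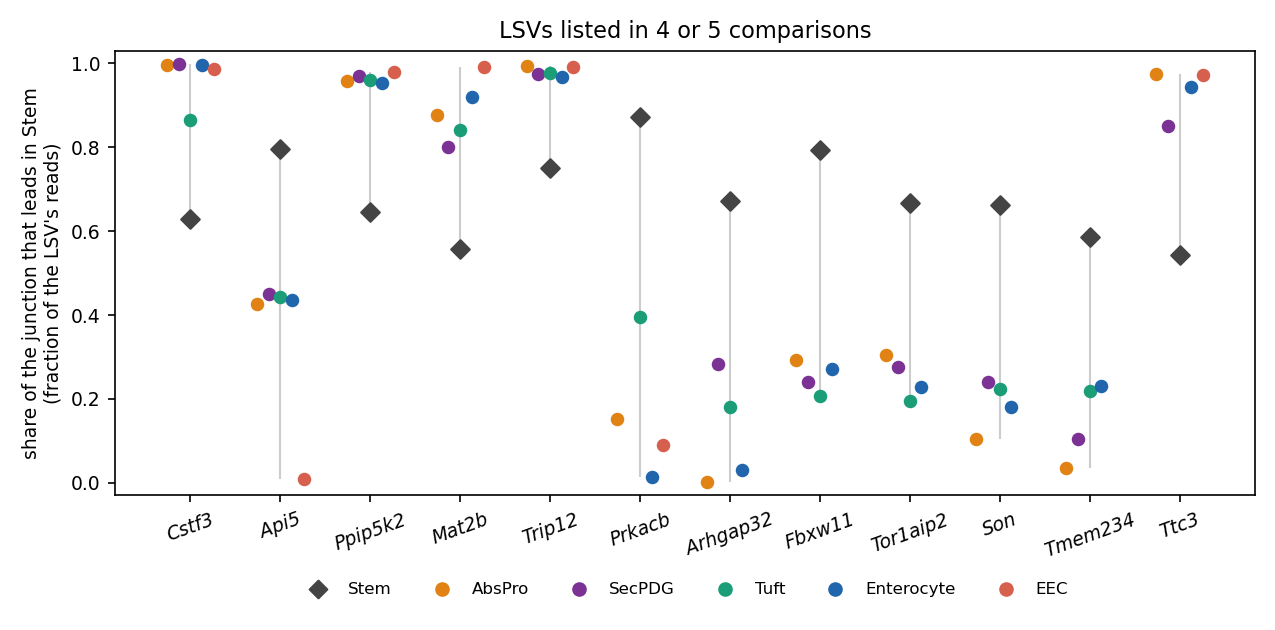
For 12 LSVs listed in 4 or 5 comparisons, the share of the junction that led in Stem is plotted (vertical axis, fraction of the LSV's reads), with a diamond for Stem and a circle for each other cell type. Grey lines span the values. Circles of the other types lie on the same side of the Stem diamond in every column, which the shared Stem libraries favour, and Api5 in EEC (0.009) stands apart from the other types (0.426 to 0.451).

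Retained introns were part of 71 complex LSVs in AbsPro, 73 in SecPDG, 46 in Tuft, 57 in Enterocyte and 52 in EEC. Changes of a retained intron by at least 0.05 were mostly gains in Enterocyte, with 32 up and 5 down, and in AbsPro, with 25 up and 12 down. They were 15 and 20 in SecPDG, 8 and 8 in Tuft, and 17 and 13 in EEC. The gain was 0.717 for Plk1 in Enterocyte. A loss was seen in Pias3, a SUMO ligase, whose retained intron had 0.370 to 0.384 in Stem, 0.003 in both SecPDG and AbsPro, and 0.022 in Enterocyte. Counts that name no gene took 72.7 to 86.0% of a library in Enterocyte and 56.9 to 58.6% in Stem, and their part in the gains was not tested. These values do not separate retained introns from unspliced RNA or from overlapping transcripts.

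Where the leading pair ended on 2 sites of the same exon, the distances differed between acceptors and donors. Of 111 distinct pairs of acceptors, 57 (51.4%) lay 3 bases apart and 93 (83.8%) lay a multiple of 3 apart. Of 80 pairs of donors, 2 lay 3 bases apart and 51 (63.7%) a multiple of 3. Among pairs more than 3 bases apart, multiples of 3 made up 36 of 52 acceptor pairs (69.2%) and 49 of 77 donor pairs (63.6%). The median distance was 3 bases for acceptors and 41.5 for donors. The 3 extra bases could be read from transcripts in 54 acceptor pairs, and all 54 ended in AG, with CAG in 39, AAG in 11, TAG in 3 and GAG in 1. These bases lie directly before the second acceptor, where introns normally end in AG, so that ending was fixed in advance. Choosing one or the other site adds or removes 1 codon in a coding exon.

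**Figure D4:**
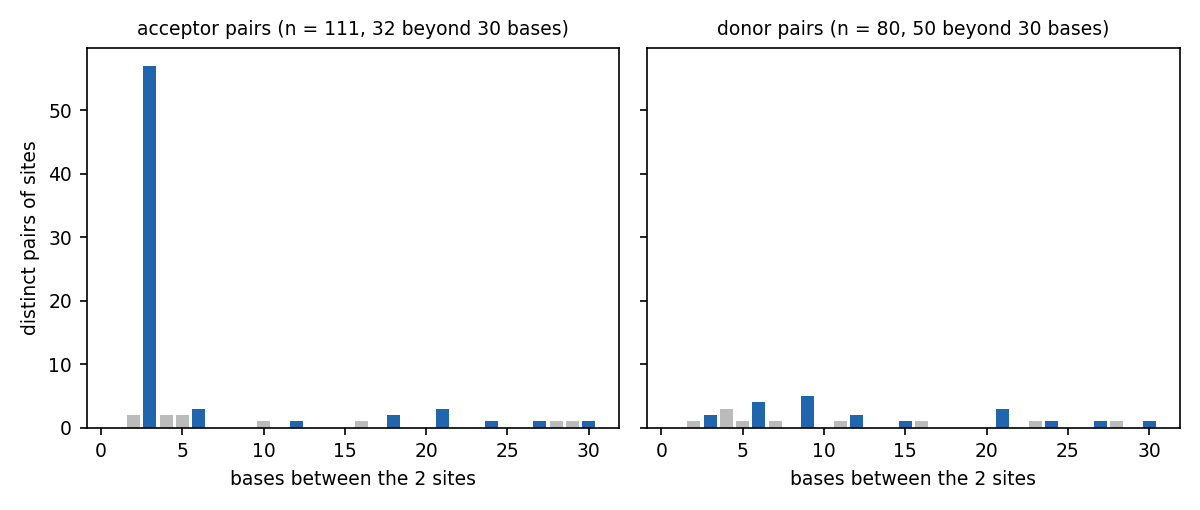
Bars count distinct pairs of acceptors (left) and donors (right) by the number of bases between the 2 sites, up to 30 bases, with multiples of 3 in blue. The acceptor panel has 1 tall bar, at 3 bases (57 of 111 pairs), and the donor panel has none of that height.

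Named examples of these tandem acceptors are those printed above. In Mff, the longer exon had a share of 0.054 in Stem, 0.594 in AbsPro, 0.348 in SecPDG, 0.421 in Tuft and 0.305 in Enterocyte. In Mdm4, the longer exon fell from 0.746 in Stem to 0.165 in SecPDG. In Golga4, it fell from 0.748 to 0.002 in EEC, and the unannotated shorter form took 0.996. Mllt4 (afadin), which links nectins to actin, held 2 such pairs in EEC. Its longer exon at 13808932 of chromosome 17 fell from 0.795 to 0.293, and the one at 13807277 went the other way, from 0.543 to 0.891.

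Among 13188 genes with a mean of at least 50 normalized counts, 609 (4.62%) held a complex LSV, with a median size of 0.352 for the largest LSV of each gene. The share was 37.9% for a list of splicing regulators (25 of 66 genes), 32.1% for adhesion and cytoskeleton (18 of 56), 28.6% for chromatin (20 of 70), 14.8% for membrane traffic (9 of 61), 9.43% for Wnt and Notch signaling (5 of 53), 8.33% for SUMOylation (2 of 24) and 5.19% for the cell cycle (4 of 77). Genes of these lists were more abundant than the median gene, with median counts of 2140, 2588, 2101, 1323, 850, 950 and 735 in that order against 399, and junctions of abundant genes are seen more often, so the shares were not tested against each other. The median sizes were 0.315, 0.334, 0.423, 0.386, 0.296, 0.629 and 0.588 in the same order. The lists were chosen with earlier results of these data known, so shares above 4.62% are a description only.

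The splicing regulators with the largest changes were Clk1, Mbnl2, Tia1 and Srrm2. Clk1, a kinase of SR proteins, joined an exon at 0.922 in Stem and at 0.115 in EEC, where the skipping junction took 0.867. Mbnl2, a muscleblind protein, lost an exon of 54 bases in EEC (junction from the exon 0.550 to 0.005). It gained another in Tuft, SecPDG and Enterocyte, whose junction (120396604 to 120403336) had 0.03 in Stem and 0.306, 0.278 and 0.247 in these. Tia1, an RNA-binding protein of stress granules, moved its upstream junction in SecPDG from 0.56 to 0.025. In Srrm2, the junction from 23811731 to 23811817 fell from 0.934 in Stem to 0.431 in SecPDG, and its skipping junction to 23812428 rose from 0.001 to 0.472.

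In the adhesion list, Abi1 used its 3 junctions at 0.396, 0.474 and 0.127 in Stem, from the farthest exon to the nearest. In EEC they were at 0.007, 0.031 and 0.962, and in Tuft at 0.124, 0.494 and 0.382. Tpm1, an actin-binding tropomyosin, went from 0.012 to 0.563 on its farther upstream exon in EEC. In Ktn1, the junction that skips an exon (47726309 to 47730340) had 0.517 to 0.528 in Stem, 0.004 in EEC, 0.170 in SecPDG and 0.277 in AbsPro. Cd44, a hyaluronan receptor with a run of variable exons, was described after its values were seen. From the last constant exon before that run, 5 junctions were in use. The one that skips farthest, to 102834335 on the minus strand of chromosome 2, fell from 0.277 in Stem to 0.025 in AbsPro and 0.112 in SecPDG, and the one to 102842949 went from 0.09 in Stem to 0.199 in AbsPro and from 0.094 to 0.231 in SecPDG. The most used one in Stem, to 102837938, moved in opposite directions, from 0.425 to 0.582 in AbsPro and from 0.427 to 0.317 in SecPDG, and so did the one to 102845410, from 0.05 to 0.001 and from 0.048 to 0.085.

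In the chromatin list, Setd5, a SET domain protein, shifted its acceptor by 57 bases. The nearer one had 0.905 in Stem, 0.615 in SecPDG, 0.628 in Tuft and 0.001 in EEC. The remodeling ATPase Chd4 did likewise over 39 bases, with the nearer acceptor at 0.606 in Stem and 0.004 in EEC, and at 0.596 and 0.255 in the AbsPro table. Ehmt2, a histone H3K9 methyltransferase, changed its acceptor by 30 bases in AbsPro (0.174 to 0.749). In membrane traffic, Sec31a moved its 5′ UTR donor in SecPDG, Tuft and Enterocyte, and the annotated junction went from 0.912 in Stem to 0.317 in SecPDG. Sec24b, another coat protein, joined an exon at 0.189 in Stem and at 0.664 in Tuft.

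Of the Wnt and Notch list, Tcf7l2, the transcription factor that beta-catenin activates, joined an exon before its exon 55817764 to 55817865 at 0.567 in Stem and 0.878 in both SecPDG and Tuft. Dvl2, a Wnt transducer, held an EEC entry of 15 values with 8 in use, none annotated. Tle3, a Groucho corepressor, lost a donor 9 bases downstream in EEC (0.294 to 0.005). Csnk1a1, the casein kinase of the beta-catenin destruction complex, went from 0.569 to 0.865 on its leading junction in EEC. The list also held Rbm3, an RNA-binding protein. In the cell cycle list, besides Plk1 and Mdm4, the transcription factor E2f3 changed its first exon. The farther one had 0.891 in Stem and 0.295 in Enterocyte, and 0.893 and 0.540 in the AbsPro table. Stag2, a cohesin subunit, lost an unannotated junction in Tuft (0.375 to 0.003) and in SecPDG (0.374 to 0.015). Besides Pias3, the SUMOylation list held Senp6, a SUMO protease, whose junction to the exon at 80087430 went from 0.913 to 0.036 in EEC. Of 6 genes followed for their own sake, Itga6, Ctnnd1 and Eif4a2 held complex LSVs, and Spen, Cbfa2t2 and Xbp1 did not.

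Replicates were available for cassette exons, since the rMATS tables give inclusion and skipping reads per library. These tables come from the same libraries as the LSVs and are not independent of them. Events with a mean of at least 10 reads that share a junction with a complex LSV numbered 139 in AbsPro, 156 in SecPDG, 128 in Tuft, 65 in Enterocyte and 82 in EEC. The edgeR quasi-likelihood test on inclusion against skipping reads, adjusted over all events of a table, called 1 of them in AbsPro (0.0466% of all events tested in that table), 0 in SecPDG, Tuft and Enterocyte (0.0% of all events there) and 2 in EEC (1.27%). At an unadjusted p under 0.05 there were 32, 22, 20, 18 and 18, beside 6.73%, 4.81%, 4.3%, 6.14% and 9.15% of all events, and a quasi-binomial model called 0, 0, 0, 0 and 3. The counts were unstable in SecPDG, with 16 events called when no minimum of reads was set and 17 without Stem library 2. Among events with reads in every library, the libraries of the 2 cell types did not overlap in 14 of 104 in AbsPro, 5 of 111 in SecPDG, 5 of 84 in Tuft, 5 of 54 in Enterocyte and 16 of 41 in EEC. Over all such events of each table, 2.26%, 1.22%, 0.761%, 0.947% and 7.95% did not overlap. Since an LSV was listed for a change in these same libraries, the larger shares among them are not independent of that choice.

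On the junction that led the LSV, the event moved in the direction of the LSV in 75 of 91 events in AbsPro, 90 of 111 in SecPDG, 69 of 93 in Tuft, 36 of 43 in Enterocyte and 48 of 60 in EEC. Its size was smaller. The median change of inclusion was 0.178, 0.110, 0.135, 0.162 and 0.285, against 0.294, 0.290, 0.281, 0.286 and 0.376 for the LSVs of the same exons. These sizes count changes in either direction. Counted toward the direction of the LSV, the median changes were 0.150, 0.079, 0.098, 0.124 and 0.209. The median SD between Stem libraries was 0.134, 0.140, 0.154, 0.086 and 0.159. Between libraries of the other type it was 0.122, 0.107, 0.172, 0.125 and 0.018, the last from 2 EEC libraries. In either direction, the median change lay above both SDs in AbsPro and Enterocyte, between them in SecPDG and below both in Tuft. Counted toward the LSV, it lay above both in AbsPro, between them in Enterocyte and below both in SecPDG and Tuft. Of the 259 distinct cassette exons on a leading junction, 144 (55.6%) had a length that is a multiple of 3, against 3786 of 8851 exons tested (42.8%).

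The called event in AbsPro was an exon of Lgals9 (78969714 to 78969806, minus strand of chromosome 11, 93 bases), which encodes galectin-9, a sugar-binding protein. Its inclusion in Stem was 0.262, 0.764 and 0.566, and in AbsPro 0.728, 0.928 and 0.733. The highest Stem library lay above the lowest AbsPro library, so the groups overlapped. The log2 odds of inclusion differed by 2.28 ± 0.52 (SE, edgeR adjusted p = 0.0246), and the call was lost with a quasi-binomial model (adjusted p = 0.426). It was also lost without any 1 of 5 libraries, with edgeR adjusted p = 0.888 without Stem 1, 0.106 without Stem 3, and 0.0723, 0.906 and 0.182 without AbsPro 1, 2 and 3. The log2 odds were 1.35 both without Stem 1 and without AbsPro 2, and 2.40 to 2.65 without Stem 3 or the other 2 AbsPro libraries. The LSV gave 0.506 in Stem and 0.792 in AbsPro for the junction to this exon, and 0.774, 0.766 and 0.994 in Tuft, Enterocyte and EEC. Mean inclusion was 0.531 ± 0.253 (SD, n = 3) in Stem, 0.804 ± 0.117 (n = 5) in Tuft, 0.814 ± 0.153 (n = 5) in Enterocyte and 0.893 ± 0.151 (n = 2) in EEC. None of these 3 passed the edgeR test fitted across all events (adjusted p = 0.608, 0.613 and 0.81).

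The 2 events called in EEC rested on 1 EEC library each, since the other had no reads. In Gnas, the stimulatory G protein subunit, the exon from 174336747 to 174336791 had an inclusion of 1.0, 0.783 and 0.9 in Stem and of 0.16 in the EEC library with reads (edgeR adjusted p = 0.000463). The LSV went the opposite way, since the junction from this exon rose from 0.499 to 0.91. In Senp6, inclusion of the exon from 80087430 to 80087523 was 0.59, 0.922 and 0.839 in Stem and 0.018 in EEC (edgeR adjusted p = 0.000736), in the direction of the LSV. With reads required in every library, neither event was tested and 0 of 41 events were called.

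For Itga6, the exon of 130 bases had an inclusion of 0.632, 0.43 and 0.433 in Stem and of 0.0, 0.225, 0.334 and 0.319 in SecPDG, without overlap. In Enterocyte it was 0.04, 0.393, 0.144, 0.243 and 0.366, also below every Stem library. The 2 EEC libraries were at 1.0, from 25 inclusion and 0 skipping reads, and at 0.122, so EEC spanned the whole Stem range. The log2 odds differed from Stem by -1.76 in SecPDG and by -1.41 in Enterocyte, and neither passed (edgeR adjusted p = 0.779 and 0.613). With no minimum of reads the SecPDG value passed (edgeR adjusted p = 0.000175), and with 1 library left out its edgeR adjusted p ranged from 0.000245 without Stem 2 to 0.921 without Stem 3. The difference was -1.10 without the SecPDG library at 0.0 (edgeR adjusted p = 0.294). In the LSV, the junction from this exon had 0.545 to 0.551 in Stem, 0.256 in SecPDG, 0.311 in Enterocyte and 0.108 in EEC.

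In Ctnnd1, p120-catenin, which stabilizes cadherins, 2 complex LSVs were listed in SecPDG. An exon of 63 bases (84605184 to 84605246, minus strand of chromosome 2) had an inclusion of 0.954, 0.786 and 0.837 in Stem and of 0.573, 0.696, 0.181 and 0.598 in SecPDG. All SecPDG libraries lay below all Stem libraries, and the log2 odds fell by 2.77 (edgeR adjusted p = 0.779, 0.000156 with no minimum of reads, and from 0.000199 without Stem 2 to 0.849 without Stem 3 when 1 library was left out). An exon of 289 bases nearer the start of the gene (84624270 to 84624558) had 0.288, 0.41 and 0.5 in Stem and 1.0, 0.503, 0.603 and 0.481 in SecPDG, with 1 SecPDG library inside the Stem range. The same junctions were also listed under a read-through gene named CTNND1 in the table. In Eif4a2, an RNA helicase of translation initiation, the exon of 107 bases from 23112351 to 23112457 had 0.467, 0.388 and 0.362 in Stem and 0.107 and 0.186 in EEC (edgeR adjusted p = 0.301).

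Events without overlap in the list of splicing regulators, which were picked for that pattern and are a description, included Hnrnph3, Srsf7, Esrp1, Mbnl1 and Mbnl2. The Hnrnph3 exon of 139 bases had 0.347, 0.585 and 0.753 in Stem and 1.0, 0.777, 1.0 and 0.919 in SecPDG. The Srsf7 exon of 460 bases, in a gene for an SR protein, had 1.0, 0.782 and 0.385 in Stem and 0.025, 0.262, 0.062 and 0.337 in SecPDG, where 1 library held only 4 inclusion and 2 skipping reads. The LSV junctions were divided on a loss of this exon. In the source LSV, the junction into it did not fall, with 0.011 in Stem and 0.062 in SecPDG. The junction that skips it rose from 0.3 to 0.636 in the source LSV and from 0.748 to 0.964 in the target LSV. By this skipping junction, the event moved in the direction of the LSV. An entry of the source LSV with no bases between its ends fell from 0.687 to 0.301. Inclusion counts hold exon reads, so unspliced reads in the Srsf7 values cannot be told apart from the exon. Esrp1, the epithelial regulator, had an exon of 110 bases at 1.0, 0.831 and 0.827 in Stem and at 0.521, 0.329 and 0.758 in AbsPro. In Mbnl1, an exon of 54 bases was at 0.0, 0.288 and 0.566 in Stem and between 0.682 and 1.0 in Tuft (median 0.856), and an exon near the start of the gene was at 0.65, 0.952 and 0.6 in Stem and between 0.276 and 0.534 in Enterocyte (median 0.379). The Mbnl2 exon of 54 bases was at 0.437, 0.325 and 0.64 in Stem and at 0.0 and 0.305 in EEC. The edgeR adjusted p of these events lay between 0.506 and 0.89.

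**Figure D5:**
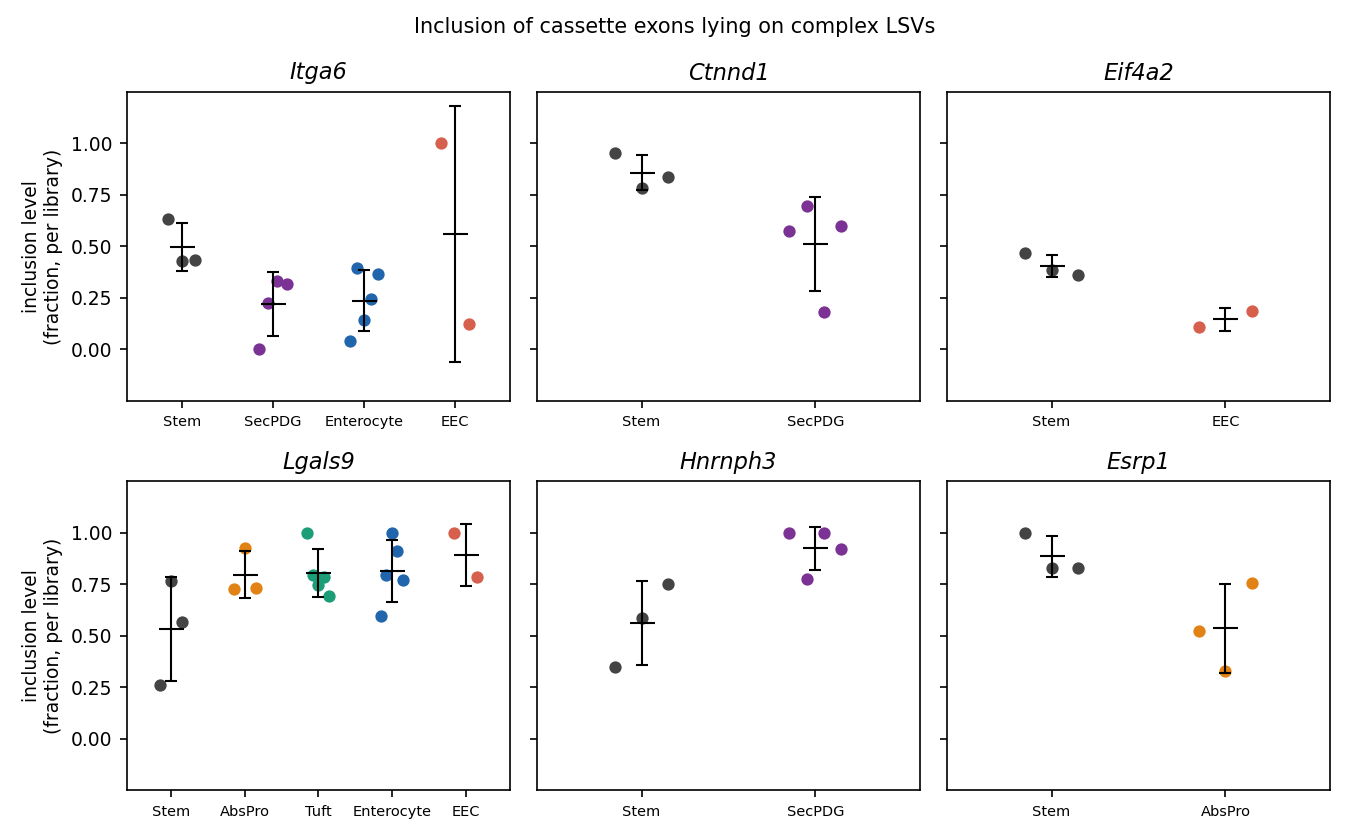
Points are the inclusion level (fraction) of 1 exon per library in 6 genes, with the mean and SD of each cell type as a bar. SecPDG and Enterocyte lie below Stem in Itga6, while its 2 EEC libraries lie at 1.0 and 0.122, and the Stem libraries of Lgals9 spread from 0.262 to 0.764.

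Genes with a complex LSV were called different in RNA level about as often as all genes tested, and the counts depended on the method. A gene was called by edgeR's quasi-likelihood test where its adjusted p was below 0.01 and its mean reached 50 normalized counts. This held for 1 of 245 genes tested in AbsPro (0.364% of all genes tested), 7 of 266 in SecPDG (3.1%), 9 of 178 in Tuft (6.44%), 25 of 153 in Enterocyte (13.5%) and 20 of 193 in EEC (14.0%). The genes with a complex LSV were called at 0.408%, 2.63%, 5.06%, 16.3% and 10.4%. They are more abundant than most genes, and among all genes with a mean of at least 50 counts the shares were higher, 0.629%, 5.36%, 11.1%, 23.4% and 24.2%. Of the calls, 5 were higher and 2 lower in SecPDG, 4 and 5 in Tuft, 1 and 24 in Enterocyte, and 3 and 17 in EEC. These directions depend on scaling, shown here for genes with a mean of at least 50 counts. Their median shift on the log2 scale was 0.20 in Tuft, 0.54 in Enterocyte and 0.69 in EEC with RLE size factors. With them, the calls were 15 higher and 7 lower in SecPDG, 20 and 7 in Tuft, 19 and 16 in Enterocyte, and 22 and 18 in EEC. DESeq2 called 3, 40, 34, 48 and 48 genes in the 5 comparisons, and 87 were called by edgeR in EEC without its library 2. In bulk libraries, fewer cells of a type and less RNA per cell cannot be told apart.

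The AbsPro call was Cd44, whose protein was used to set the gates, so its RNA is not a finding between them. Its normalized counts were 9577, 9502 and 10724 in Stem and 2421, 2994 and 1856 in AbsPro. In SecPDG, Gmppb (GDP-mannose synthesis), Cdhr5 (a protocadherin of microvilli), Tpd52 (vesicle traffic), Plk1 and Ick (a kinase of cilia) were higher, and Boc and Rbms1 (an RNA-binding protein) lower. Boc, which also held one of the 4 largest LSV changes there, went from 3125 ± 529 (SD, n = 3) normalized counts in Stem to 852 ± 198 (n = 4), a log2 fold change of -1.88 ± 0.29 (SE, edgeR adjusted p = 3.53e-05). Plk1 had 1508 ± 135 in Stem and 4540 ± 541 in SecPDG (log2 fold change 1.59, edgeR adjusted p = 0.00449), while its retained intron went from 0.179 to 0.716. In Enterocyte, Plk1 was at 706 ± 408 (n = 5), with a library at 1396 above the lowest Stem library at 1389, and its retained intron at 0.896.

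In Tuft, Cdhr5, Gmppb, Fryl and Tpd52 were higher, and Kcne3 (a potassium channel subunit), Cenpa (the centromeric histone), Rbms1, Srsf7 and Dnmt1 (the maintenance DNA methyltransferase) were lower. In Enterocyte, Dnmt1 went from 6342 ± 363 in Stem to 1091 ± 350 (n = 5), a log2 fold change of -2.54 ± 0.29 (edgeR adjusted p = 1.61e-07). St3gal4, a sialyltransferase, was the gene that rose, from 143 ± 55.8 to 1603 ± 436. The genes that fell there included Mybbp1a, Rps2, Cluh, Itga6, Api5, Ttc3 and the RNA-binding factors Hnrnpr, Mbnl1 and Tra2b. Itga6 had 8783 ± 1082 in Stem, 3849 ± 1968 in Enterocyte (edgeR adjusted p = 0.00994) and 1737 ± 1109 (n = 2) in EEC (edgeR adjusted p = 0.00084). In EEC, Nin (a centrosome protein), Pam (which amidates peptide hormones) and Cdhr5 were higher, with log2 fold changes of 3.58, 2.94 and 1.60. Their 2 EEC libraries lay far apart, with counts of 5710 ± 4365 (SD, n = 2), 9690 ± 7376 and 6345 ± 4870. Nin also changed its upstream exon, from 0.957 to 0.036 on one junction and from 0.005 to 0.917 on another. Pam used an acceptor 3 bases downstream at 0.314 in EEC and 0.001 in Stem. The other 17 calls in EEC were lower, among them Hnrnpm, Hnrnpab, Raly, Pcbp2, Dnmt1 and Api5.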

How the data were processed

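RNA was sequenced from sorted colon crypt cells in 22 libraries, grouped by GEO's labels. Per the labels, the authors aligned reads to mm10 with STAR 2.5.2a and counted genes with HTSeq 0.6.1p1 without regard to strand, and the deposited counts are raw. Entries of the count files that name no gene (53.9 to 91.6% of counts) were left out. The LSV tables were made by the authors with MAJIQ on pooled libraries. The deposited share of each junction is a fraction without a value per library. Expected changes and probabilities are the authors' own comparison: the first served only to count values, and neither these nor the p-values, FDR and differences of the rMATS tables were used further. The deposited rMATS read counts (junction and exon reads) carry no library names. Their place in the list only names a library within its cell type, and does not tie it to a library of the count files. Other deposited tables were not used here.

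Changes are other cell type minus Stem. The gene test was edgeR 4.0.16 under R 4.3.3 (filterByExpr, TMM, 1 quasi-likelihood fit of all libraries), and events with edgeR on paired inclusion and skipping counts. P-values were adjusted by Benjamini-Hochberg over all genes or events, and DESeq2 1.42.0 was an alternative. Of 680 genes, 632 matched the gene counts, and scripts were tested on simulated data. Coordinates are 1-based, from the files, and sequences and annotation are GENCODE M21 (GRCm38). Named were the 4 largest LSVs per comparison, the 12 most often listed, up to 4 per gene list, 6 genes followed in the study, and called events without overlap, of which there were 0. Members and lists were chosen with earlier results of these data known. Replicates were separate mice or pools per the study's methods. Read-based precision covers counting error only. Results for some genes that the rule names are not reported here.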

Additional observations from a re-analysis of the deposited data

Results flagged for a closer look

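Of 56 sets of 4 or 5 libraries tested for a library far from the others, 1 stood apart, where chance gives about 1 in 20. It was the normalized count of Cdhr5 in SecPDG, where library 2 had 17738 and the other 3 libraries had 7687, 7072 and 8431. All 4 lay above the Stem libraries, which had 2075, 2212 and 1987.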

How the results depend on the processing

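The number of complex LSVs stayed within 1.5 times of the main count when 4 or more values were required or entries of 20 or more values were left out. The number of LSVs listed more than once fell from 300 to 135 when only changes of at least 0.3 were counted. Median sizes moved little. In the order AbsPro, SecPDG, Tuft, Enterocyte and EEC, they were 0.322, 0.315, 0.304, 0.306 and 0.438 as the sum of absolute changes divided by 2, and 0.318, 0.308, 0.295, 0.297 and 0.441 with annotated leading junctions only (chosen after seeing the data). In genes with a mean of at least 50 counts they were 0.311, 0.296, 0.3 and 0.44 in SecPDG, Tuft, Enterocyte and EEC.

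Counts of genes called depended on the method. With RLE size factors there were 2 in AbsPro, 22 in SecPDG, 27 in Tuft and 40 in EEC. With only the 2 cell types in the fit there were 9, 46, 22 and 3, and DESeq2 called 3, 40, 34 and 48 there and 48 in Enterocyte. At an adjusted p under 0.05 there were 17 in SecPDG, 22 in Tuft, 51 in Enterocyte and 39 in EEC. Leaving out 1 library gave 1 to 1, 4 to 7, 3 to 10, 13 to 38 and 14 to 87. The count was 4 in SecPDG without Stem 1. In Tuft it was 3 without Stem 2, and 4 without Stem 1, Tuft 2 or Tuft 3. In Enterocyte it was 13 without Stem 1 or Enterocyte 3, 14 without Enterocyte 2 and 38 without Enterocyte 1, and in EEC it was 87 without EEC 2. The cause was not tested. The fit with the replicate number as a block called 1, 13, 11, 37 and 23 genes. Over 44 pairs of libraries with the same number, the correlation of deviations was -0.44 to 0.35 (median -0.0038), and 8 were over 0.1. Deviations from means of so few libraries cannot settle whether the numbers pair the libraries, and the main fit assumed no pairing.

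For cassette exons, AbsPro had 0 calls at an adjusted p under 0.01, by exon match or with the quasi-binomial model, and 2 with a minimum of 30 reads. SecPDG had 16 with no minimum of reads, and EEC had 1 by exon match and 0 with reads in every library (chosen after seeing the data). Leaving out 1 library gave 0 to 1 in AbsPro, 0 to 17 in SecPDG (17 without Stem 2), 0 to 5 in Tuft (5 without Tuft 5), 0 to 2 in Enterocyte and 0 to 3 in EEC. No paired analysis was possible because the event counts carry no library names or replicate numbers. Counting each alternative of each value, the fold changes of single genes (62 values) kept their side of the threshold 715 times and lost it 146 times, and the log2 odds of single events (13 values) kept it 130 times, lost it 16 times and gained it 13 times. No called value changed direction. Uncalled ones did, such as the log2 odds of the Itga6 exon in EEC, at -0.93 with both EEC libraries and 9.38 without EEC 2. The alternatives that rest on expected changes or probabilities of the authors were not run. The shallowest library, of EEC, held 4122122 reads in genes.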
